A study of Bos taurus with 25 samples.

Results

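The genes described here are SAA2 and SAA3, which code for serum amyloid A proteins, and HP, which codes for haptoglobin. Their members are all 9 non-control probes of the bovine array whose transcript name pairs with these 3 symbols in the RefSeq gene table of the ARS-UCD2.0 assembly, out of 43653 probes and 11068 genes with a current symbol. SAA2 had 2 probes, SAA3 had 4 and HP had 3. Each probe was kept apart, and the probes of a gene share its transcript, so they are not independent measures of it. Liver and mammary biopsies came from 13 multiparous Holstein cows in lactation, 12 of which gave both tissues, with 25 arrays in all. The cows received a weekly intramuscular injection of 5 mL that held saline (control), 320 mg of vitamin B9 (folic acid), 10 mg of vitamin B12 (cyanocobalamin) or both vitamins (B9 + B12), from 3 weeks before the expected calving, and tissue was taken 64 ± 3 days after calving. The liver arrays were those of 3 control cows (42, 43 and 51), 3 B9 cows (39, 41 and 57), 4 B12 cows (36, 37, 40 and 52) and 2 B9 + B12 cows (32 and 38). The mammary arrays were those of the same cows and of a further B9 + B12 cow, cow 31. Each array is 1 biopsy of 1 cow.

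Serum amyloid A and haptoglobin are the main positive acute phase proteins of cattle. Hepatocytes make them in response to cytokines such as interleukin-6, interleukin-1 and tumour necrosis factor, and both are used in veterinary practice as blood markers of inflammation. Haptoglobin binds free haemoglobin, and the complex is taken up by the macrophage receptor CD163. Serum amyloid A travels on high-density lipoprotein, and SAA3 is known in cattle as the mammary-associated form, made by the epithelium of the udder and secreted into colostrum and milk. The SAA genes arose by duplication and resemble each other in sequence, so that a probe of a member may also bind the transcript of another, which was not tested. On chromosome 29 the order is SAA3, LOC104968478, the transfer RNA gene TRNAC-GCA, SAA2, SAA4 and M-SAA3.2, and HP lies on chromosome 18. SAA4 had 1 probe on the array, and no probe was paired with M-SAA3.2.

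For HP the study also designed a quantitative PCR assay, and its oligonucleotides are shown because they mark the stretch of the transcript that was chosen for measuring haptoglobin. Values of that assay were not analysed here.
HP forward primer: cacagtagtgacaaaaaagcaaagg
HP reverse primer: ggagtggtcagggtggagaac
The forward primer has 25 bases, 10 of them G or C, and the reverse primer has 21 bases, 13 of them G or C.

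Values are log2 intensities, that is, the median brightness of a spot after background correction, put on the same distribution over the arrays of a tissue. A difference of 1 is a 2-fold difference on this scale. The background correction adds an offset of 50, so that a difference that involves dim readings is smaller than that of the spots themselves. For HP probe A_73_104190 in the mammary gland, cows 57 and 41 read 7.54 and 6.03 from raw medians of 202 and 34. The median signal over background of an array ranged from 2.30 to 10.5 in the liver and from 2.92 to 5.06 in the mammary gland, and 71.2 to 84.2% and 64.5 to 76.5% of spots were well above background. The liver arrays of cows 57 and 32 had the lowest median correlation with the other liver arrays (0.972 and 0.973, against up to 0.992). The array of cow 32 was scanned with those of control cow 43 and B12 cow 37 on a slide read on a later day than the rest. The tissue labels fitted their markers. The summed level of 7 hepatocyte markers, led by TTR, ALB and FGB, was 20.5 to 20.6 over the liver arrays, and that of 7 mammary epithelial markers, led by CSN1S1, PAEP and CSN3, was 21.1 to 21.2 over the mammary arrays. All 7 markers were well above background on every array of their own tissue. Milk protein transcripts were also read in the liver, where the mammary epithelial sum was 10.3 in each control cow, 10.6 to 12.4 in the B9 cows, 9.88 (cow 52) to 13.7 (cow 36) in the B12 cows and 11.01 to 11.29 in the B9 + B12 cows. With B12, 5 of its 7 markers were over 2-fold higher (median change 1.68), with 1 of the 7 higher at an unadjusted limma p below 0.05 and 0 called. The part of this RNA in the liver values of SAA2 and SAA3 was not tested.

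All 9 probes were well above background on all 12 liver arrays, and no spot of theirs was called saturated or an outlier on any array. In the mammary gland the 4 SAA3 probes and the SAA2 probe A_73_P103046 were well above background on all 13 arrays, and the SAA2 probe A_73_P035636 on 10. The HP probes A_73_104190, A_73_P101951 and A_73_P400651 were well above background on 7, 6 and 5 of the 13 mammary arrays. Of these arrays, 2 of 3 control arrays read each HP probe above background, and no B9 + B12 array did so for A_73_P101951 and A_73_P400651. The brightest probe of a gene in a tissue is called its lead probe. In the liver the lead probes were A_73_104190 for HP, A_73_P035636 for SAA2 and A_73_P060826 for SAA3, and in the mammary gland A_73_P103046 took the place of A_73_P035636 for SAA2.

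HP was a liver transcript in these cows. With both tissues normalized together, the lead probe A_73_104190 read 16.7 ± 1.27 (SD, n = 12) in liver and 6.41 ± 0.556 (SD, n = 13) in mammary tissue. The difference was 10.22 ± 0.35 (SE) on the log2 scale in the limma fit over all arrays (adjusted p = 9.34e-16). The other HP probes differed by 9.28 ± 0.34 and 9.73 ± 0.32. Since 7, 6 and 5 of 13 glands read these probes well above background, the mammary side of each difference is in part a background reading. The offset of 50 weighs most on such dim readings and makes the differences smaller, and the SE does not cover these limits. In the 6 cows with both tissues whose gland read the lead probe well above background, the difference within the cow ran from 7.15 in B12 cow 52 to 11.20 in B12 cow 37. It was above 0 in 12 of 12 cows. The exact sign-flip test over the 12 cows gave p = 0.000488, two-sided, which is the smallest it can give. SAA2 probe A_73_P035636 showed the same picture, with 17.6 ± 0.848 in the liver, 6.68 ± 0.696 in the mammary gland and a difference of 10.76 ± 0.26 (adjusted p = 2.44e-18), with 10 of 13 glands well above background. The other SAA2 probe, A_73_P103046, differed by 5.14 ± 0.30, with 16.9 ± 0.648 in liver and 11.6 ± 1.06 in mammary tissue. The probes of SAA2 thus gave unequal differences between the same tissues.

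The 4 SAA3 probes fell into pairs. A_73_P060826 was higher in the liver by 5.70 ± 0.28 and A_73_110703 by 5.19 ± 0.31, in 12 of 12 cows each. A_73_P060851 differed by −0.22 ± 0.36 (limma adjusted p = 0.623) and A_73_P060831 by −0.68 ± 0.38 (adjusted p = 0.128), and they were higher in the liver in 6 and 3 of 12 cows. These probes had 11.35 ± 1.17 and 10.9 ± 1.33 in liver and 11.5 ± 1.06 and 11.5 ± 1.06 in mammary tissue. For A_73_P060851 the within-cow differences ran from −2.06 in cow 52 to 2.51 in cow 39, and the sign of the mean difference turned with the scaling (0.20 when arrays were scaled by their 75th percentile). In all, 7 of the 9 probes were called higher in the liver (adjusted p up to 0.05, difference of 2-fold or more), against 8.8% of all probes of the array called higher in the liver and 9.89% called lower. The array names the same transcript for all 4 SAA3 probes. What makes the pairs differ was not tested.

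**Figure D1:**
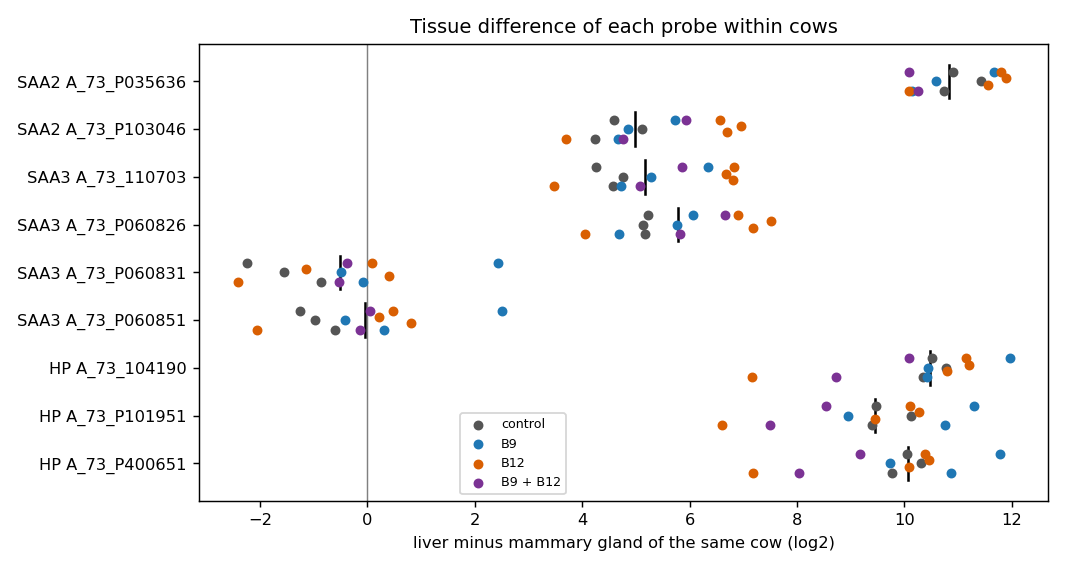
Liver level minus mammary level of the same cow for each of the 9 probes (log2, horizontal axis), with 1 point per cow coloured by treatment and a black line at the median of the 12 cows. HP and SAA2 A_73_P035636 sit near 10, SAA2 A_73_P103046 and the first SAA3 pair near 5, and SAA3 A_73_P060831 and A_73_P060851 around 0.

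The liver values of HP were lowest in the cows given both vitamins and in a cow given B12. The lead probe A_73_104190 read 17.40, 18.04 and 17.36 in control cows 42, 43 and 51. It read 18.39, 17.25 and 18.58 in B9 cows 39, 41 and 57, so that cows 39 and 57 were above all control cows and cow 41 was below them. It read 17.84, 17.93, 17.49 and 15.08 in B12 cows 36, 37, 40 and 52. Cows 36, 37 and 40 lay within the control range, and cow 52 was the lowest liver of all 12. The B9 + B12 cows 32 and 38 read 16.84 and 15.74, both below all control cows. The order of the group means was B9 + B12 (16.3 ± 0.775), B12 (17.1 ± 1.35), control (17.6 ± 0.382) and B9 (18.1 ± 0.720), SD over 2 to 4 cows, and no group differed from the next by more than the larger of their SDs. In the limma fit the change from control was −1.31 ± 0.80 (SE) with B9 + B12, −0.52 ± 0.67 with B12 and 0.47 ± 0.71 with B9, with adjusted p of 0.687, 1 and 0.925. The change with B9 + B12 was −0.76 without cow 38 and −1.86 without cow 32. Without cow 52 the change with B12 was 0.15, and the change with B9 was 0.22 without cow 57 and 0.88 without cow 41. The other HP probes had the same order of groups, with changes of −1.56 ± 0.92 and −1.51 ± 0.81 with B9 + B12.

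SAA2 in the liver had a narrower range. Its lead probe A_73_P035636 read 18.32, 18.41 and 18.04 in control cows 42, 43 and 51, and 18.48, 17.70 and 18.97 in B9 cows 39, 41 and 57. B12 cows 36, 37 and 40 read 18.30, 18.29 and 18.30, within the control range, and cow 52 read 17.03. B9 + B12 cows 32 and 38 read 16.83 and 17.29, again below all control cows. The change with B9 + B12 was −1.20 ± 0.44 (SE, limma adjusted p = 0.687), and the step from the B9 + B12 mean (17.1 ± 0.325) to the B12 mean (18.0 ± 0.636) was larger than either SD. The second probe, A_73_P103046, changed by −1.12 ± 0.37 with B9 + B12.

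The probes of SAA3 had unequal ranges in the liver, and their changes were not tested against each other. The lead probe A_73_P060826 covered 0.717 log2 units over all 12 arrays, from 18.04 to 18.76. These are among the brightest readings reported here, with the gene ORM1 at 18.87 to 19.06. Whether the upper end of the scale narrowed the range and the changes of this probe was not tested. It read 18.56, 18.68 and 18.58 in control cows 42, 43 and 51, 18.65, 18.41 and 18.76 in B9 cows 39, 41 and 57, 18.68, 18.75, 18.64 and 18.04 in B12 cows 36, 37, 40 and 52, and 18.07 and 18.30 in B9 + B12 cows 32 and 38. Its change with B9 + B12 was −0.42 ± 0.20 (limma adjusted p = 0.687), and that of its partner A_73_110703 was −1.03 ± 0.40. Of the other pair, A_73_P060831 read 11.27, 11.50 and 12.57 in the control cows, 14.75, 11.37 and 13.88 in the B9 cows, 11.26, 10.01, 11.71 and 10.55 in the B12 cows and 9.85 and 11.32 in the B9 + B12 cows, in the same order of cows. Its change with B9 + B12 was −1.19 ± 0.92, and that with B9 was 1.55 ± 0.82. A_73_P060851 read 12.29, 12.21 and 12.71 in control cows 42, 43 and 51 and 14.81, 11.44 and 14.32 in B9 cows 39, 41 and 57. B9 cows 39 and 57 were the highest of all livers, and cow 41 was below all controls. The probe read 11.68, 11.58, 11.98 and 11.04 in B12 cows 36, 37, 40 and 52, all below all control cows (exact permutation p = 0.0571, two-sided, n = 4 and 3), and 10.41 and 11.69 in B9 + B12 cows 32 and 38. It changed by 1.12 ± 0.74 under B9, by −0.83 ± 0.69 under B12 and by −1.35 ± 0.83 under both vitamins. Leaving out 1 array gave 0.47 (without cow 39) to 2.16 (without cow 41) under B9, and −0.72 (without cow 32) to −1.99 (without cow 38) under both. Of all probes, 2.55% had every B12 liver array below every control array. The order of this probe's means was B9 + B12, B12, control and B9, and only the step from B12 (11.6 ± 0.394) to control (12.4 ± 0.268) was larger than the spread of both groups. The neutrophil marker sum was highest in the liver array of cow 39 (14.3) and 12.4 to 14.1 in the others, with 7 of 9 markers well above background on all liver arrays and S100A12 as the brightest. Its part in the values of cow 39 was not tested.

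**Figure D2:**
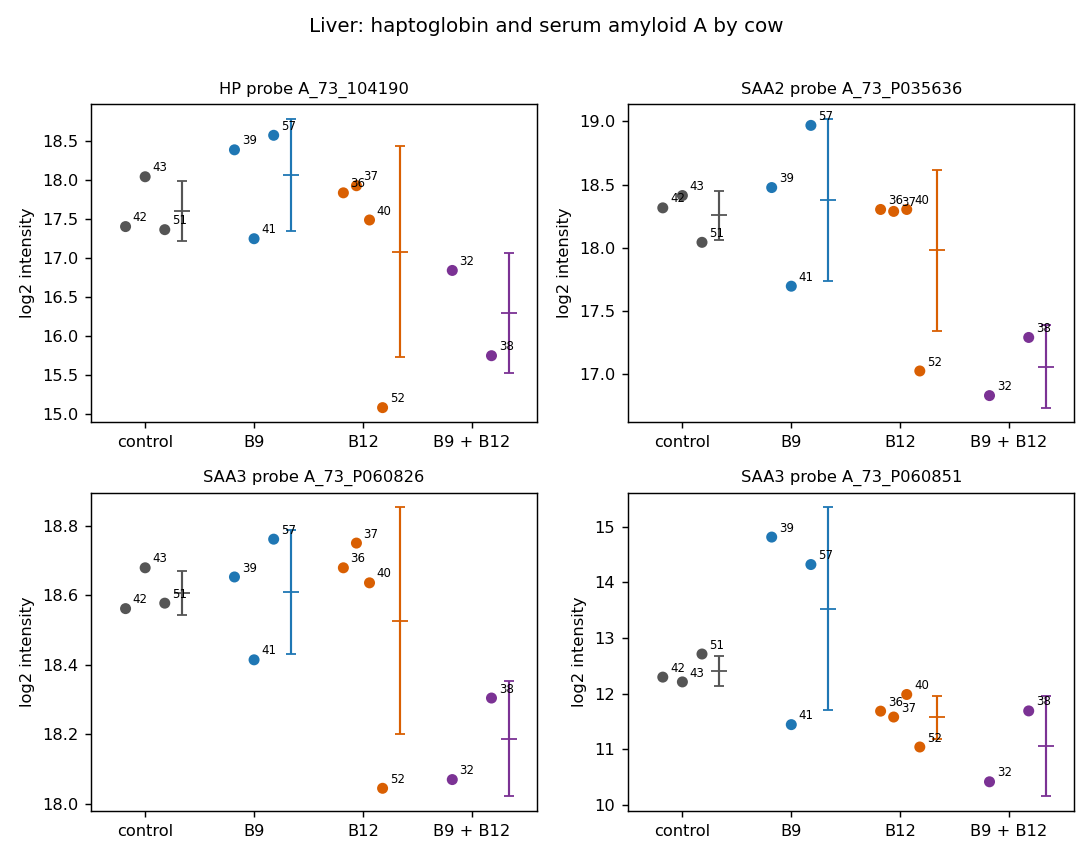
Log2 intensity in the liver of HP, SAA2 and both kinds of SAA3 probe by treatment group, with 1 point per cow labelled by its number and the mean ± SD of the group beside it. The 2 B9 + B12 cows lie below the 3 control cows in all 4 panels, cow 52 lies apart from the other B12 cows in all but the last, and cows 39 and 57 stand out for SAA3 A_73_P060851. The vertical axes do not start at 0 and differ between panels.

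By limma no probe of the 3 genes passed the threshold in a liver comparison. It called 0 of 9 probes for B9, B12 and B9 + B12, and 0%, 0.00229% and 0% of all probes of the array. With B9 + B12 all 9 probes had lower means, with changes from −1.56 to −0.42 and a median of −1.20, while the median change of all probes was 0.02. The B9 + B12 arrays lay below all control arrays for 8 of the 9, against 9.84% of all probes. At an unadjusted limma p below 0.05 there were 3 of 9, both SAA2 probes and SAA3 A_73_110703, against 2.36% of all probes that were lower at that level. Cyber-T, the test of the study's methods, called 3 of 9 (both SAA2 probes and HP A_73_P400651), against 0.0504% of all probes, with adjusted p of 0.0316, 0.0401 and 0.0451. With 2 cows against 3 the exact permutation test cannot go below 0.1, and 8 of the 9 probes reached that value. With B12 alone all 9 means were lower, beside 45.7% of all genes, with 0 of 9 lower at an unadjusted p below 0.05 (0.976% of all probes) and 0 by Cyber-T (0.0985%). Without cow 52, 7 of the 9 means were higher than control, by 0.04 to 0.19, and those of SAA3 A_73_P060831 and A_73_P060851 were lower (−0.78 and −0.66). With B9 alone 2 of 9 means were lower, beside 45.6% of all genes, and 0 of 9 were higher at an unadjusted p below 0.05 (2.11% of all probes) or called by Cyber-T (0.0115%). For the mean of the 3 vitamin groups limma called 0 of 9 (0% of all probes), with 0 lower at an unadjusted p below 0.05 (1.26% of all probes) and 0 by Cyber-T (0.0206%).

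Within slides cow 32 was lower than the control cow for 9 of 9 probes and cow 38 for 8 of 9, with SAA3 A_73_P060831 at 0.06 in the latter. On the slide of the later scan, cow 32 differed from control cow 43 by −1.20 for HP A_73_104190, −1.58 for SAA2 A_73_P035636, −0.61 for SAA3 A_73_P060826 and −1.79 for SAA3 A_73_P060851. On another slide, cow 38 differed from control cow 42 by −1.66, −1.02, −0.26 and −0.61 for the same probes. B12 cow 37 on the first of these slides differed from control cow 43 by −0.12 for HP and −0.13 for SAA2, and B12 cow 40 differed from control cow 51 on a further slide by 0.12 and 0.26. For SAA3 A_73_P060851 these B12 cows differed by −0.63 and −0.73. B9 cow 57 was above control cow 42 on its slide by 1.17 for HP and 2.02 for SAA3 A_73_P060851. When slide was a fixed block, the change of SAA2 A_73_P035636 with B12 turned to 0.13.

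In the mammary gland the lead probes of SAA3 and SAA2 were high in the control cows and in 1 cow of each treated group. SAA3 A_73_P060826 read 12.24, 12.46 and 12.31 in control cows 42, 43 and 51. It read 11.57, 11.55 and 12.98 in B9 cows 39, 41 and 57, so that cow 57 was the highest gland and the others were below all controls. It read 10.86, 10.34, 10.56 and 12.60 in B12 cows 36, 37, 40 and 52. The first 3 were more than 1 unit below the lowest control, and cow 52 was above all controls. It read 12.27, 10.24 and 11.31 in B9 + B12 cows 31, 32 and 38, with cow 31 inside the control range and cow 32 the lowest gland. SAA3 A_73_P060851 followed the same cows, with 11.83, 11.51 and 11.57 in the control cows, 10.52, 10.34 and 12.07 in the B9 cows, 9.72, 9.86, 9.67 and 11.49 in the B12 cows and 11.20, 9.03 and 10.29 in the B9 + B12 cows, in the same order of cows. Here cow 52, at 11.49, was just below the lowest control cow. SAA2 A_73_P103046 read 11.71, 11.38 and 11.86 in the control cows, 10.80, 10.64 and 12.11 in the B9 cows, 9.95, 9.52, 9.89 and 11.58 in the B12 cows and 11.24, 9.02 and 10.66 in the B9 + B12 cows. For each of these probes the 3 control glands spanned less than any treated group.

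**Figure D3:**
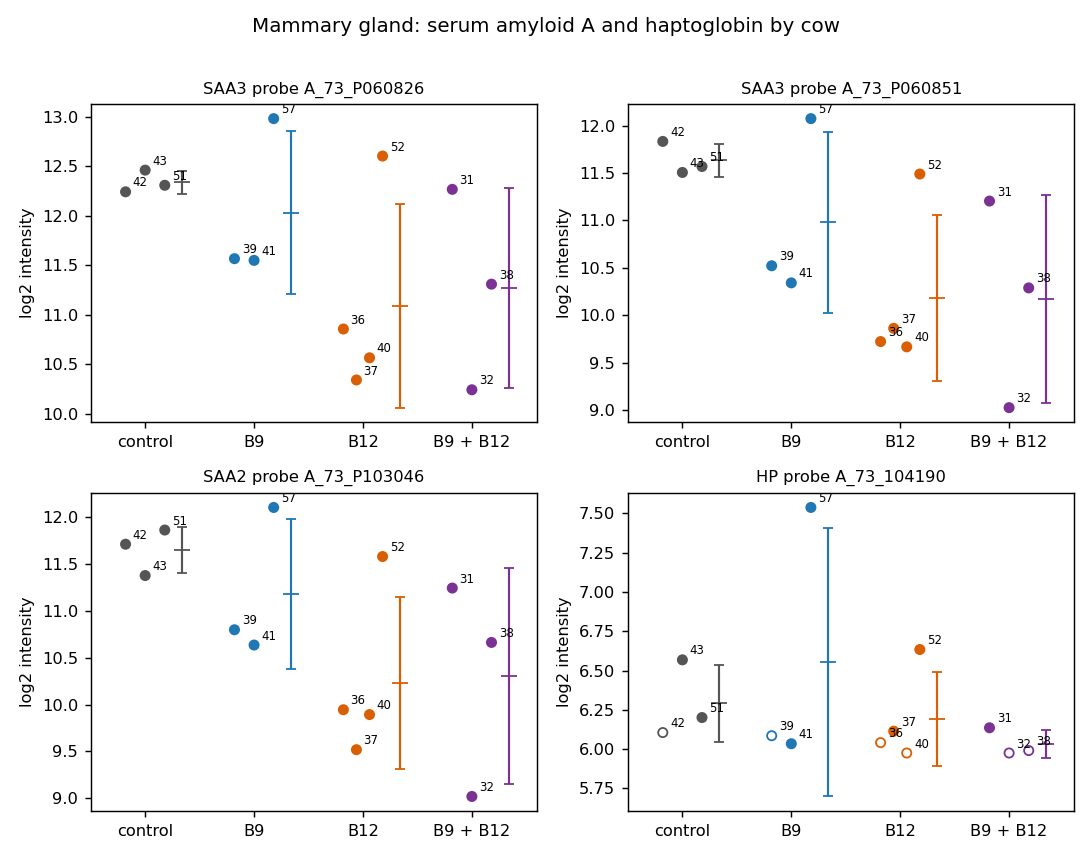
Log2 intensity in the mammary gland of both kinds of SAA3 probe, SAA2 A_73_P103046 and HP A_73_104190 by treatment group, with 1 point per cow labelled by its number and the mean ± SD beside it. Open points are arrays on which the probe was not well above background. For the SAA probes cows 57, 52 and 31 lie near the control cows and the other 7 treated cows lie below them, while HP is close to background in all but cow 57. The vertical axes do not start at 0 and differ between panels.

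The mammary SAA changes with B12 were close in size to those with both vitamins. In the limma fit SAA3 A_73_P060826 changed by −1.25 ± 0.60 (SE) with B12, −1.07 ± 0.64 with B9 + B12 and −0.30 ± 0.64 with B9. The last ran from −0.78 (without cow 57) to −0.06 (without cow 41), and when slide was a fixed block it turned to 0.30. SAA3 A_73_110703, A_73_P060831 and A_73_P060851 changed by −1.50 ± 0.58, −1.47 ± 0.59 and −1.45 ± 0.60 with B12, and by −1.49 ± 0.62, −1.49 ± 0.63 and −1.46 ± 0.64 with B9 + B12. With B9 they changed by −0.80 ± 0.62, −0.67 ± 0.63 and −0.66 ± 0.64. SAA2 A_73_P103046 changed by −1.42 ± 0.60 and −1.34 ± 0.64, and its change with B9, −0.47 ± 0.64, turned to 0.0451 when slide was a fixed block. These were among the lowest changes of the array, since 0.00687% to 0.0389% of all probes had a lower change with B12 than these 5 probes. None passed the adjustment over the array, with an adjusted p of at least 0.9997 in each comparison. The order of the means of SAA3 A_73_P060826 was B12 (11.1 ± 1.03), B9 + B12 (11.3 ± 1.01), B9 (12.0 ± 0.823) and control (12.3 ± 0.113), SD over 3 or 4 cows, and no step between neighbours exceeded the larger SD. Leaving out each array in turn, the change of this probe with B12 ran from −0.997 (without cow 37) to −1.75 (without cow 52), and that with B9 + B12 from −0.55 (without cow 32) to −1.56 (without cow 31). With B9 + B12 the range was −0.70 to −1.81 for SAA2 A_73_P103046 and −0.89 to −1.98 for SAA3 A_73_P060851.

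By the counts over the 9 probes, limma called 0 in the mammary gland for each of the 3 treatments, and 0% of all probes in each. With B12, 8 of 9 means were lower, 4 probes had all B12 arrays below all control arrays (SAA2 A_73_P035636 and SAA3 A_73_110703, A_73_P060831 and A_73_P060851) against 1.61% of all probes, and 4 were lower at an unadjusted limma p below 0.05 against 0.898% of all probes. Cyber-T called 2 of them, SAA3 A_73_110703 and A_73_P060831, with adjusted p of 0.0284 and 0.0345, against 0.0229% of all probes. The exact permutation test of 4 cows against 3 gave p = 0.0571 for the 3 SAA3 probes that were separated and 0.0286, the smallest it can give, for SAA2 A_73_P035636, which was well above background on 2 of 4 B12 arrays. With B9 + B12 all 9 means were lower, those of HP A_73_P101951 and A_73_P400651 from arrays at background. Of the 9, 5 probes (SAA2 A_73_P103046, 3 of SAA3 and HP A_73_P400651) had all treated arrays below all control arrays against 3.47% of all probes, 3 SAA3 probes were lower at an unadjusted p below 0.05 against 0.962%, and Cyber-T called 0 (0.0137% of all probes). With B9 there were 0 probes whose treated glands all lay below the control glands (3.16% of all probes), 0 lower at an unadjusted p below 0.05 (1.1%) and 0 called by Cyber-T (0.0115%). For the mean of the 3 vitamin groups limma called 0 (0% of all probes), 3 SAA3 probes were lower at an unadjusted p below 0.05 against 0.868%, and Cyber-T called 0 (0.0115% of all probes). In this comparison SAA3 A_73_110703 was below all control glands in 9 of 10 treated cows, with a change of −1.27 ± 0.50 (exact permutation p = 0.0455, two-sided, n = 10 and 3, the lowest of the 9 probes and not adjusted for their number).

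Glands on the same slide gave unequal differences. On a slide that held all 4 treatments, SAA3 A_73_P060826 differed from control cow 51 by −0.74 in B9 cow 39, −1.74 in B12 cow 40 and −1.0001 in B9 + B12 cow 38. On another slide B12 cow 52 differed from control cow 43 by 0.14 and B9 + B12 cow 32 by −2.22. On a further slide B9 + B12 cow 31 was 0.02 above control cow 42. Marker sums were read beside these values. The hepatocyte marker sum of the gland, led by TTR and APOA1 with 3 of 7 markers well above background on all arrays, was highest in cows 52 (14.3), 31 (13.4) and 57 (13.2), against 11.7 to 12.4 in the other 7 treated cows and 12.0 to 12.7 in the control cows. The mammary epithelial sum was 21.1 to 21.2 in all glands. The neutrophil sum was 10.3 to 11.5 and the macrophage sum, led by C1QA, C1QB and LYZ, was 13.1 to 14.0, with 6 of 9 and 7 of 8 markers well above background on all arrays. Neutrophil markers had lower means than control in 9 of 9 genes with B9 (median change −0.17) and with B9 + B12 (−0.16, all genes −0.01), and in 5 of 9 with B12. Macrophage markers had lower means in 7 of 8 genes with B9 + B12 (median −0.08), 5 of 8 with B9 and 4 of 8 with B12. The 3 plasma cell markers, XBP1, JCHAIN and MZB1, had lower means in all 3 treatments (median −0.24 with B12, −0.48 with B9 and −0.19 with B9 + B12), and the red blood cell markers in 7 of 7 genes with B9, 5 of 7 with B9 + B12 and 2 of 7 with B12. The adipocyte sum, led by FABP4 and LPL, was 15.7 to 16.6. The part of these cell types in the SAA values was not tested, and in biopsies fewer cells of a type and less RNA per cell cannot be told apart.

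HP gave little signal in the mammary gland. Its lead probe read 6.11, 6.57 and 6.20 in control cows 42, 43 and 51, 6.09, 6.03 and 7.54 in B9 cows 39, 41 and 57, 6.04, 6.11, 5.98 and 6.63 in B12 cows 36, 37, 40 and 52, and 6.14, 5.98 and 5.99 in B9 + B12 cows 31, 32 and 38. Cow 57, the highest gland for SAA3, was also the highest for HP. The lead probe changed by 0.26 ± 0.34 with B9 (well above background on 2 of 3 treated arrays), by −0.10 ± 0.32 under B12 (2 of 4) and by −0.26 ± 0.34 under both (1 of 3). The rise with B9 rests on cow 57, since B9 cows 39 and 41 read below all control cows. For the 2 HP probes that no B9 + B12 array read well above background, no change with B9 + B12 is given, and their lower means there are counted only as readings at background.

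The effects were not shown to differ between the tissues or to depend on the other vitamin. The difference of the liver effect from the mammary effect was called by limma for 0 of 9 probes for each of the 3 treatments (0% of all probes each), and 0 were below an unadjusted p of 0.05. It was 1.23 ± 0.73 for SAA3 A_73_P060826 with B12 and 2.17 ± 1.07 for SAA3 A_73_P060831 with B9. The interaction of B9 with B12, the change with both vitamins minus the sum of the changes with each, was below 0 for all 9 probes in the liver, from −1.85 to −0.34. In the gland it was below 0 for 4 of 9 probes, with a median of 0.49, and above 0 for SAA2 A_73_P103046 and the 4 SAA3 probes (0.49 to 0.82). It was called for 0 of 9 in the liver and 0 of 9 in the gland (0% of all probes each), and 0 were below an unadjusted p of 0.05.

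**Figure D4:**
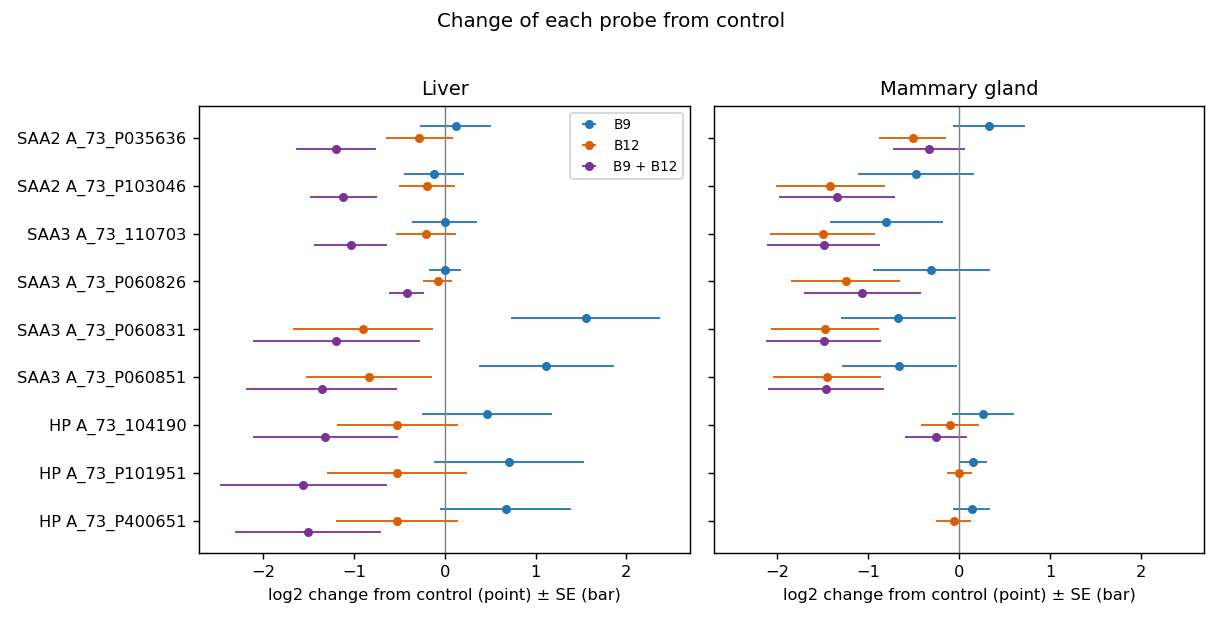
Change from control of each of the 9 probes in the liver (left) and the mammary gland (right), as the log2 difference in the limma fit (point) with its standard error (bar), coloured by treatment. In the liver B9 + B12 lies lowest for all 9 probes. In the gland no B9 + B12 point is drawn for 2 HP probes, which no array of that group read well above background, and B12 and B9 + B12 lie close together, below −1 for SAA2 A_73_P103046 and the SAA3 probes and nearer 0 for the rest.

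Between cows the lead probes of the 3 genes varied together in the liver, and those of SAA2 and SAA3 in the mammary gland. In the liver the lead probes of SAA2 and HP had a Pearson r of 0.862 over 12 cows (permutation p = 0.00036) and a Spearman rho of 0.914 (permutation p = 6e-05), SAA3 and HP had an r of 0.864 (p = 0.00123 by permutation) with a rho of 0.932 (p = 5e-05), and SAA2 and SAA3 an r of 0.959 (permutation p = 2e-05) with a rho of 0.798 (p = 0.00246). Adjusted over the family of 12 relations computed, the p of r were 0.000864, 0.00246 and 6e-05, and those of rho 0.00018, 0.00018 and 0.00422, all by permutation. Without the 2 livers farthest from the median of the first gene, r was 0.924, 0.898 and 0.914 over 10 cows, and over the 9 livers of the first scan day it was 0.953, 0.955 and 0.956. Deviations from the group means gave 0.814, 0.847 and 0.947, so the relation was also seen between cows of a group. SAA3 A_73_P060851 related less to the others in the liver, with an r of 0.749 with SAA2, 0.636 with HP and 0.630 with the lead probe of its own gene (adjusted permutation p of 0.00999, 0.0357 and 0.0357). Without the 2 farthest livers these fell to 0.620, 0.449 and 0.399, with adjusted permutation p of 0.0880, 0.260 and 0.290, so that as Pearson correlations they did not hold without those cows. The rho over all 12 livers were 0.820, 0.664 and 0.536 (adjusted permutation p of 0.00392, 0.0335 and 0.0926), the r of deviations from group means 0.683, 0.391 and 0.565 (adjusted permutation p of 0.0278, 0.247 and 0.103), and the r of the first scan day 0.748, 0.741 and 0.658.

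In the mammary gland the lead probes of SAA2 and SAA3 also varied together. SAA2 A_73_P103046 had an r of 0.973 with SAA3 A_73_P060826 and 0.976 with SAA3 A_73_P060851 over 13 cows, and these SAA3 probes had 0.965 with each other (rho of 0.934, 0.967 and 0.907, adjusted permutation p of 6e-05 each for r). Without the 2 farthest glands r was 0.965, 0.961 and 0.946. As a description over the 13 glands, SAA2 A_73_P103046 had an r of 0.937 to 0.984 with the 4 SAA3 probes and of 0.688 with the other SAA2 probe, A_73_P035636. HP was left out of these relations because 6 of 13 glands did not read its lead probe above background.

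Between the tissues of a cow no Pearson correlation of the same gene passed the threshold, and 1 of 3 rank correlations did. Over the 12 cows r was 0.080 (permutation p = 0.801, adjusted 0.801) for SAA3 A_73_P060826, 0.337 (permutation p = 0.281, adjusted 0.307) for the lead probes of SAA2 and 0.487 (permutation p = 0.112, adjusted 0.135) for SAA3 A_73_P060851. The rho were 0.105, 0.424 and 0.629, the last with a permutation p of 0.0328 (adjusted 0.0437). Deviations from the group means gave r of −0.433, −0.156 and 0.227 (adjusted permutation p of 0.208, 0.641 and 0.517). Cow 52 had the lowest liver and the second highest gland for SAA3 A_73_P060826, and cow 57 had the highest of each.

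**Figure D5:**
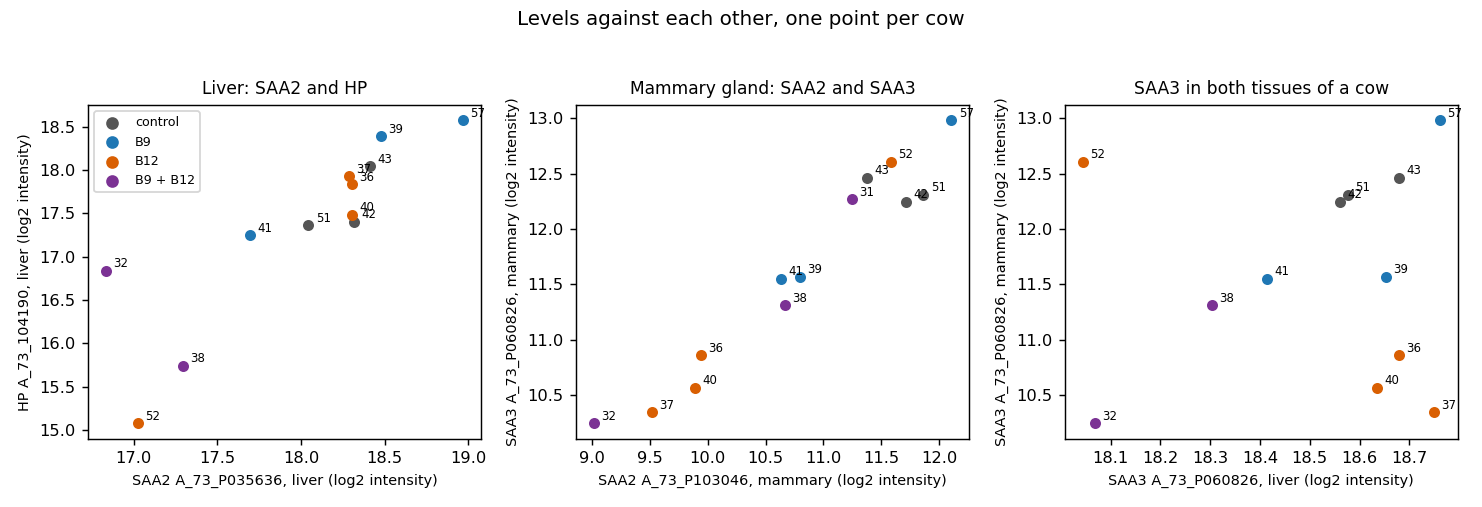
Log2 intensities against each other with 1 point per cow, coloured by treatment and labelled by the cow's number, for SAA2 and HP in the liver (left), SAA2 and SAA3 in the mammary gland (middle) and SAA3 in the liver against the mammary gland of the same cow (right). The first 2 panels rise together (r of 0.862 and 0.973) and the third does not (r of 0.080), with cow 52 at its upper left and cow 32 at its lower left.

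The genes whose levels followed these probes most closely over the liver arrays were other acute phase genes in part. For HP, by Pearson r over 12 arrays among 8948 genes well above background on all of them, they were SERPINA3-7 (r = 0.949), a serine protease inhibitor of the antichymotrypsin family, LBP (0.917), the lipopolysaccharide-binding protein, SERPINA3-3 (0.908), HAPLN3 (0.892) and GPX3 (0.883), the plasma glutathione peroxidase. For SAA2 they were SLC13A5 (0.962), a citrate transporter, HAPLN3 (0.903), SERPINA3-7 (0.865), SLC11A1 (0.851) and SGPL1 (0.846). For SAA3 A_73_P060826 they were SLC13A5 (0.891), SERPINA3-7 (0.875), HAPLN3 (0.869), ORM1 (0.848), the alpha-1-acid glycoprotein, and LBP (0.835). For SAA3 A_73_P060851 they were USP12 (0.893), VTI1B (0.869), RAP1GDS1 (0.864), LOC768319 (0.822) and GNG5 (0.807), none of them on the acute phase lists read below. These lists share 12 arrays and were picked as the highest of many, so that no p is given. SERPINA3-7, SERPINA3-3 and ORM1 covered only 18.36 to 18.87, 18.64 to 18.97 and 18.87 to 19.06, also among the brightest readings. Deviations from the group means gave r of 0.975 for SERPINA3-7 and 0.883 for LBP with HP, and 0.909 for ORM1 with SAA3 A_73_P060826. Over the 13 mammary arrays, among 8474 genes, SAA3 A_73_P060826 followed the complement genes CFI (0.846) and CFB (0.842), then RHOV (0.809), ZNF527 (0.778) and ARHGEF39 (0.773). SAA2 A_73_P103046 followed TMEM161A (0.850), CFI (0.787), CHI3L1 (0.787), a chitinase-like protein, RNF25 (0.780) and ZNF527 (0.773). Some of these genes were dim with narrow ranges. TMEM161A covered 6.40 to 6.74, RNF25 6.52 to 6.75, ZNF527 7.10 to 7.47 and ARHGEF39 6.24 to 6.75, beside 9.02 to 12.11 for SAA2 A_73_P103046. HP is left out here, since 6 of 13 glands did not read its lead probe well above background.

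Other genes of the acute phase pathway were read in the same comparisons. Over the 6 lists of upstream, related and downstream genes, 5 comparisons and both tissues, limma called 0 of 870 tests, and 26 (2.99%) were at an unadjusted p below 0.05, beside 3.40% over all genes in the same comparisons. Of the acute phase proteins that rise in inflammation, 22 of 29 listed had a probe, not counting SAA1, whose name pairs with SAA2 here. With B9 + B12 in the liver 15 of these 22 had lower means, with a median change of −0.06 beside 0.05 over all genes, of which 41.5% were lower. At an unadjusted p below 0.05 the fibrinogen chains FGB (−0.64 ± 0.22) and FGG (−0.50 ± 0.19) and CRP (−0.50 ± 0.22) were lower, and HAMP, the iron hormone hepcidin (1.17 ± 0.37), and CD14 (0.66 ± 0.23) were higher. FGB, FGG, CRP and CD14 were named after their values were seen. The SAA4 change, −0.98 ± 0.57, was the largest fall of the list. HAMP read 12.2 to 13.3 in the control livers and 13.7 to 14.2 in the B9 + B12 livers. In the mammary gland 11 of 22 had lower means (median 0.00, all genes −0.01), with CFB at −0.72 ± 0.49 and ORM1 at 0.68 ± 0.92 as the largest changes.

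Acute phase proteins that fall in inflammation had higher means in 10 of 11 genes in the liver with B9 + B12 (median 0.07, with 0.05 over all genes, of which 41.5% were lower), led by APOA1, the main apolipoprotein of high-density lipoprotein (1.04 ± 0.76), and FETUB (0.80 ± 0.56), and in 9 of 11 in the gland (median 0.03, with −0.01 over all genes, of which 54.4% were lower), led by TF (1.02 ± 0.94) and APOA1 (0.90 ± 0.44). None was below an unadjusted p of 0.05. Of the upstream cytokines and receptors, 10 of 14 had a probe, and 5 were lower in the liver and 6 in the gland, with IL1RAP at −0.73 ± 0.33 and IL6R at 0.65 ± 0.33 in the liver and IL6R at 0.29 ± 0.21 and TNF at −0.25 ± 0.19 in the gland. Of the transcription factors and feedback genes, 3 of 15 were lower in the liver (median 0.27) and 10 of 15 in the gland (median −0.11). ZC3H12A, a ribonuclease that degrades cytokine transcripts, changed by 0.69 ± 0.46 and JUNB by 0.62 ± 0.47 in the liver, and CEBPB changed by −0.42 ± 0.42 and JUNB by −0.36 ± 0.31 in the gland. Of the receptors and haem handling genes, 6 of 10 were lower in the liver and 4 of 10 in the gland, with TLR2 at −0.83 ± 0.53 and MERTK at 0.21 ± 0.21 in the liver and SCARB1 at −0.22 ± 0.33 and MERTK at 0.13 ± 0.09 in the gland. Of the mammary innate defence genes, 5 of 19 were lower in the liver and 13 of 19 in the gland. LTF, the iron-binding milk protein lactoferrin, changed by −1.56 ± 0.72 in the liver and −1.04 ± 0.70 in the gland, LPO by 0.48 ± 0.35 in the liver, and S100A12, a calcium-binding protein of neutrophils, by −0.80 ± 0.36 in the gland, the only gene of its list at an unadjusted limma p below 0.05 there. The same shares over all genes apply to the other lists. Unless another treatment or a reading is named, all values of this paragraph are log2 changes with B9 + B12 from control, with their SE in the limma fit.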

How the data were processed

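Labelled cRNA made from the RNA of each biopsy was hybridised for the authors to a 1-colour Agilent bovine array, and the deposited scanner files hold the median intensity of each spot and its local background. The authors' deposited table holds log2 values corrected by normexp and normalized across arrays tissue by tissue, and it was used as an alternative. Here intensities were corrected with normexp (offset 50) and normalized by quantiles within a tissue, or over both tissues where tissues were compared. Spots called outliers by the scanner software were left out. Treatments were compared with limma 3.58.1 in R 4.3.3, with all arrays of a tissue in the fit, Benjamini-Hochberg adjustment over 43653 probes, and a call where the adjusted p was up to 0.05 and the change 2-fold or more. Cyber-T (window 101, confidence 10), other scalings, blocks and left-out arrays were alternatives. Tests were checked on simulated data with changes planted in the B12 groups only. The planted changes were larger than the treatment changes of the 9 probes. Recovery of changes of the size seen here, or in the smaller B9 + B12 liver group, was not checked. Figures were drawn with matplotlib. The named genes are all 9 probes, for each gene list members past the threshold and the 2 largest changes with B9 + B12 in each tissue, the 3 brightest markers of each list and the 5 genes most correlated with each lead probe (not printed for HP in the mammary gland, which was mostly near background). The 5 genes most correlated with SAA3 A_73_P060851 in the liver are named as well. Members and lists were chosen with earlier results of these data known. The same cow gave both tissues, so cow numbers pair the tissues, and fits with the cow as a block were alternatives. Deviations from group means correlated between the arrays of a cow by −0.245 to 0.262 (median 0.037, above 0.1 in 4 of 12 cows). The number of arrays limits the precision.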

Additional observations from a re-analysis of the deposited data

Results flagged for a closer look

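In the B12 group, the only treatment with 4 arrays a tissue, cow 52 lay apart from the other 3 cows for 8 of the 18 probes and tissues looked at, by the gap to the nearest cow as a share of the group's range. Chance gives about 1 in 20, and the probes of a gene are not independent. The share of all probes of the array flagged by this rule was not computed. Whether cow 52 stood apart in general cannot be told from this count. Its arrays had a median correlation of 0.992 with the other livers and 0.989 with the other glands. The 18 include the HP probes of the gland, mostly read near background. In the liver it was lowest for SAA2 A_73_P035636 (share 0.988, 17.03 against 18.29 to 18.30), SAA2 A_73_P103046 (0.890), SAA3 A_73_110703 (0.883), SAA3 A_73_P060826 (0.838), HP A_73_104190 (0.846, 15.08 against 17.49 to 17.93) and HP A_73_P400651 (0.866). In the mammary gland it was highest for SAA3 A_73_P060831 (0.947, 11.399 against 9.71 to 9.80) and SAA3 A_73_P060851 (0.893). The gland of cow 52 also had the highest hepatocyte marker sum (14.3), whose part in these values was not tested.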

How the results depend on the processing

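Of the counts of calls, those by Cyber-T moved, with 3 probes called in the liver with B9 + B12 and 2 in the mammary gland with B12, where limma called 0. SAA2 A_73_P035636 in the liver with B9 + B12 (−1.20) passed the threshold by Cyber-T. Leaving out each array in turn gave 0 to 0 calls in each treatment comparison and 7 to 7 between the tissues. With the cow as a replicate block, random or fixed, 7 of 9 probes were called between the tissues and 0 for the difference of the effects, so the pairing changed no call. The difference of SAA3 A_73_P060851 between the tissues was 0.20 with scaling by the 75th percentile and 0.0702 with the processed signal. When slide was a fixed block, the change with B12 in the liver was 0.13 for SAA2 A_73_P035636 and 0.11 for SAA3 A_73_P060826, and that with B9 in the gland was 0.0451 for SAA2 A_73_P103046 and 0.30 for SAA3 A_73_P060826. SAA3 A_73_P060826 in the liver with B9 was −0.0261 with quantiles over both tissues. Without the liver arrays of cows 57 and 32, an alternative chosen after seeing the data, the change with B9 was −0.17 for SAA2 A_73_P035636 and −0.0726 for SAA3 A_73_P060826. Leaving out each array, the changes in the liver ran from −0.17 to 0.46 (SAA2, B9), −0.38 to 0.0406 (SAA2, B12), −0.0726 to 0.10 (SAA3 A_73_P060826, B9), −0.15 to 0.0824 (SAA3 A_73_P060826, B12), −0.80 to 0.15 (HP, B12) and −1.86 to −0.76 (HP, B9 + B12). In the gland this was run for SAA2 A_73_P103046 and SAA3 A_73_P060826 and A_73_P060851 only. Their changes kept their sign, with −1.75 to −0.997 (B12) and −1.56 to −0.55 (B9 + B12) for SAA3 A_73_P060826. For SAA2, SAA3 A_73_P060826 and HP in the liver, the highest values with B12 were those without cow 52, and the lowest with B9 those without cow 57. The causes were not tested. Of the correlations, 9 of 12 passed the threshold, 7 on deviations from the group means and 6 without the 2 farthest arrays. HP in the gland is limited by signal over background.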
